A study of Mus musculus with 18 samples.

Results

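Genes for the products that goblet cells and deep crypt secretory cells release were followed across the crypt: Muc2, Tff3, Fcgbp, Agr2, Zg16, Spink4, Retnlb, Reg4 and Klk1. They were chosen by gene symbol, as 9 of the 43346 genes in the deposited count table, and all 9 entered the test, as part of 26717 genes with at least 1 count. RNA was sequenced from EPCAM+ cells sorted from the crypts of the small intestine (SI) and the large intestine (LI) of untreated mice, labelled as strain C57BL/6, genotype Lgr5_eGFP_Iris_creERT2 and a postnatal age of 8 to 20 weeks. All groups carried this allele, in which enhanced GFP and a CreERT2 recombinase are read from the locus of the stem cell gene Lgr5. Cells with high, mid and low GFP were taken as crypt centre cells, border cells and cells above row 3 (row >3). That gave 6 groups of 3 biological replicates each. In this allele GFP is known to be patchy, so the row >3 group holds cells of crypts in which the allele had been active and was still detectable, and not a full sample of the upper crypt. Dead cells were gated out and no goblet cell marker was used in the sort.

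Goblet cells make the mucus layer. Muc2 is the gel-forming mucin of the gut, Fcgbp (Fc fragment of IgG binding protein) is a large mucus protein that joins the Muc2 network, and Zg16 (zymogen granule protein 16) is a lectin that binds bacteria in mucus. Agr2 is a disulfide isomerase that mucin folding in the endoplasmic reticulum depends on, and Tff3 is a trefoil peptide released with the mucin. Spink4 is a small Kazal-type protein of goblet cells, Retnlb (resistin-like beta) is a goblet cell protein that acts on bacteria, Reg4 is a secreted lectin-like protein that marks deep crypt secretory cells of the colon, and Klk1 is tissue kallikrein, a serine protease. Deep crypt secretory cells lie between the stem cells of the colon crypt, the place that Paneth cells take in the small intestine.

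Promoter windows from RefSeq (GRCm38.p6), 250 bases before to 50 bases after the gene start, were at hand for 5 of the 9 genes, namely Muc2, Fcgbp, Agr2, Reg4 and Klk1. The 4 shown belong to the 2 pairs of genes that the results below turn on, Muc2 and Fcgbp, with their increase across the SI crypt, and Reg4 and Klk1, with their difference between sites. Capitals mark the motifs TATAAA (a hexamer rich in adenine), CAGCTG (an E-box), CCACCC (Klf type) and TGTTTAC (Foxa type) on either strand.
Muc2 (chr7:141690090-141690389, plus strand): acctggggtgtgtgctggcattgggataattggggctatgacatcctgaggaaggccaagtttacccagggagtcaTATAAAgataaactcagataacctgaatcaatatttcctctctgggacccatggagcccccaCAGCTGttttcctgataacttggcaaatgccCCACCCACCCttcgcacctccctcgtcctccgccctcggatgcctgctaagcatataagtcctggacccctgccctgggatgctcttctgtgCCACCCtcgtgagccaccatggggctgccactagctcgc
Fcgbp (chr7:28070986-28071285, plus strand): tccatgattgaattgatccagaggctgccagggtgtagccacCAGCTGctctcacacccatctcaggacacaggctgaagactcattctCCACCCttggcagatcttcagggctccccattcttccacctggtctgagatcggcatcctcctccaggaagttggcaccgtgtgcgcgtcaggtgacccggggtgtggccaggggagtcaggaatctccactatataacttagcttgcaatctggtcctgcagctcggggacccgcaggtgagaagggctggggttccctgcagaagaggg
Reg4 (chr3:98221906-98222205, plus strand): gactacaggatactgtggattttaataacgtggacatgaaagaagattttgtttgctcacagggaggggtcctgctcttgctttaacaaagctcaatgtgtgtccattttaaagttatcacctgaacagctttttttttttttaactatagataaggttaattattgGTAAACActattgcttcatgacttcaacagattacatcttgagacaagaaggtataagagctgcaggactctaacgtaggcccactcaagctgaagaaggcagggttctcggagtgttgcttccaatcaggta
Klk1 (chr7:44225110-44225409, plus strand): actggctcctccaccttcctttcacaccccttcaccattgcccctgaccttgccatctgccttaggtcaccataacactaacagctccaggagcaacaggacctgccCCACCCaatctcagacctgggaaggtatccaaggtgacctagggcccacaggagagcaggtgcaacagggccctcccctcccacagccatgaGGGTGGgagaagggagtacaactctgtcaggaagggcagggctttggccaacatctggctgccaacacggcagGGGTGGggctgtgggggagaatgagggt

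TATAAA was found 1 time in the Muc2 window, 174 bases before the gene start, and is held by 13.6% of the 32851 windows of this length. CAGCTG was found in the Muc2 and Fcgbp windows, 1 time each, and is held by 16.3% of all windows. CCACCC was found 3 times in Muc2 (2 of the matches overlap), 1 time in Fcgbp and 3 times in Klk1, and is held by 31.5%. The Reg4 window held none of these and 1 match to TGTTTAC, a motif present in 3.65%. CAATAAA (Cdx type, 4.6%) and CAAAGTC (Hnf4 type, 4.44%) were searched on both strands and matched in none of the 4, while CCAAT (37.4%) matched in all but Fcgbp, in Klk1 overlapping a CCACCC, and CCACG (32.8%) matched in Reg4. The GC content of the windows was 55.3% in Muc2, 58.3% in Fcgbp, 60.0% in Klk1 and 39.3% in Reg4, against a median of 52.7% over all windows. A match of letters is a description and not a binding site.

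In the GENCODE M21 annotation of GRCm38 the 9 genes lie at 9 separate places. Muc2 spans chr7:141690340-141754693, Fcgbp chr7:28071236-28120862 and Klk1 chr7:44225360-44229618, all on the plus strand, and Zg16 spans chr7:127050156-127087328 on the minus strand. Reg4 is at chr3:98222156-98236748 (plus), Spink4 at chr4:40920052-40931395 (plus), Agr2 at chr12:35992907-36004087 (plus), Retnlb at chr16:48816856-48818892 (plus) and Tff3 at chr17:31125306-31129646 (minus). Values are counts over whole genes, so exons and untranslated regions are not separated. No exon of these genes overlapped an exon of another counted gene. The pseudogene Gm10109 opposite Klk1 reached a group mean of 0.845 CPM (here counts scaled to the library's plain total) against 451 for Klk1. The small nuclear RNA Gm22747 inside the Zg16 span reached 0.0212 against 807.

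The 18 libraries held 8312093 to 31940965 counts, with a median of 21934852. The 3 SI libraries numbered 3 stood apart before any of the 9 genes was considered. Car1, a carbonic anhydrase of the large-intestinal epithelium, had normalised counts of 1668, 22796 and 38981 in their centre, border and row >3 cells, against 0 to 215 in the SI libraries numbered 1 and 2 and 2498 to 26486 in the LI. Hoxb13, a gene of the distal colon, was at most 1.52 in all libraries, the LI included. The 5 small-intestinal genes summed to 2685 to 19395 in the SI libraries numbered 3, against 8612 to 85162 in the other SI libraries and 173 to 356 in the LI. This list shares a gene with the stem cell markers, and Car1 is also among the absorptive markers below. In SI replicates 1 and 2 its sum fell from 85162 and 81377 in centre to 8612 and 10790 in row >3 cells. In SI centre replicate 3 the stem cell markers summed to 22175.5, against 93571 and 88520 in replicates 1 and 2. Why the small-intestinal sum was lower there was not tested. The libraries numbered 3 therefore carried RNA of both kinds of marker, the large-intestinal kind being Car1 among the genes given here. The tests on the 9 genes within the SI and between the sites are given with and without them. Shares, correlations and values where the omission is not named rest on all 18 libraries. The epithelial markers Epcam, Cdh1 and Krt8 summed to 43580.4 or more in every library, the 5 immune markers to 581 at most and the 6 stromal markers to 321 at most. The mean of the gene used for the sort was lower from gate to gate: Lgr5 had 2434 to 5252 normalised counts in SI centre, 157 to 2028 in SI border and 28.1 to 279.6 in SI row >3 cells, and 2176 to 2575, 1184 to 1676 and 134 to 466 in the LI. SI border replicate 3 (157) lay below 2 of the SI row >3 libraries, and likewise the 4 stem cell markers summed to 1541 in it, against 4835 and 9754 in SI row >3 replicates 1 and 2.

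Markers of other cell types moved between the groups too. Paneth cell markers (7 of 7 genes counted, Lyz1 among them) summed to 36921 to 174129 in SI centre, 11495 to 131870 in SI border and 4476 to 99955 in SI row >3 cells and to 0 to 245 in the LI, where Lyz1 was at most 1.52. The 9 absorptive markers summed to 1498 to 7434, 4577 to 40487 and 6542 to 61015 across the SI positions and to 6582 to 9423, 6985 to 16819 and 20353 to 33381 across those of the LI. The 7 enteroendocrine markers spanned 373 to 5910.3, 1192 to 6703 and 1716 to 12289 in the SI, and the 5 tuft cell markers 528 to 8287, 5396 to 17102 and 1663 to 7045. Their part in the results was not tested.

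Together the 9 genes took a growing share of the sequenced counts from the crypt centre outwards, and in the SI the step was steep. They held 0.0832 to 1.11% of all counts in SI centre libraries, 0.500 to 1.35% in SI border libraries and 2.92 to 4.90% in SI row >3 libraries. The corresponding ranges in the LI were 0.904 to 1.57%, 1.18 to 1.78% and 1.82 to 2.73%. The SI row >3 libraries lay above all others, and the 2 SI centre libraries numbered 1 and 2, at 0.0832 and 0.147%, lay below all others. Since these are bulk libraries, fewer cells of a type and less RNA per cell cannot be told apart in any of these values.

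**Figure D1:**
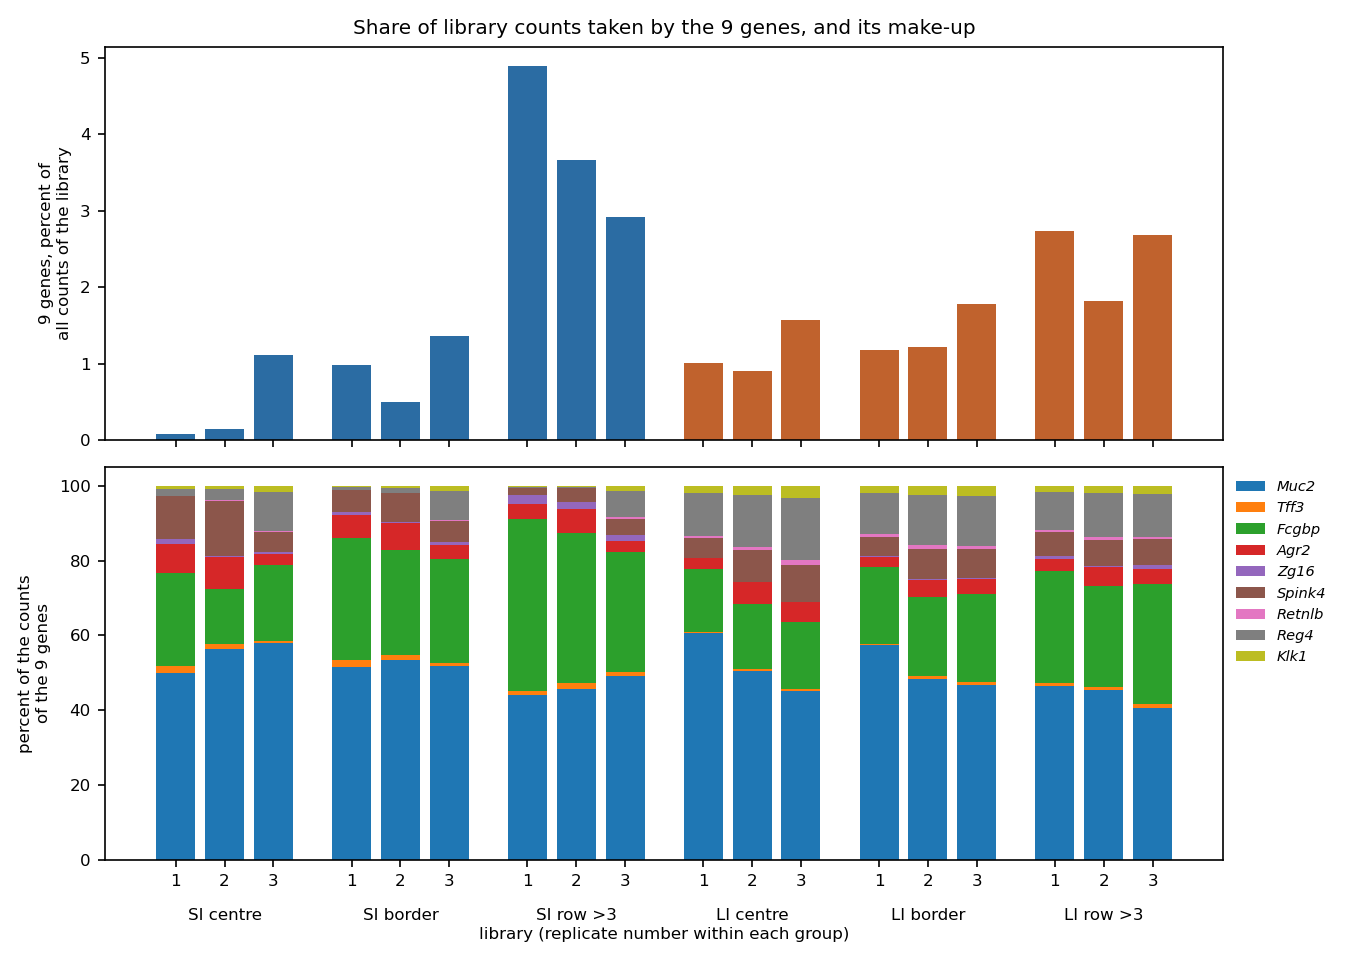
Upper panel: the percent of all counts in each of the 18 libraries that fell on the 9 genes, with SI libraries in blue and LI libraries in orange. Lower panel: the percent of those counts that each gene took, where the grey band (Reg4) is thin in the SI libraries numbered 1 and 2 and broad in the SI libraries numbered 3 and in the LI.

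The make-up of that share differed as well. Muc2 was its largest part in all libraries but 1, with 40.7 to 60.7% of the counts of the 9 genes. The exception was SI row >3 replicate 1, where Fcgbp took 45.9% and Muc2 44.1%. The share of Fcgbp was 14.9 to 25.0% in SI centre cells and 32.1 to 45.9% in SI row >3 cells, and 16.8 to 18% in LI centre cells and 27.1 to 32.3% in LI row >3 cells. Within each site these ranges did not overlap. Reg4, Klk1 and Retnlb together took 12.4 to 21.2% in the LI, 8.88 to 12.5% in the SI libraries numbered 3 and 0.561 to 4.04% in the other SI libraries.

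Per kilobase of exon, which allows genes to be set side by side, Spink4 had the highest normalised count of the 9 in 17 of the 18 libraries. In LI centre cells it stood at 37537 ± 21147 per kilobase (SD, n = 3), followed by Reg4 at 31036 ± 15324 and Muc2 at 15712 ± 3286. The library values of Spink4 and Reg4 overlapped, and those of Reg4 lay above those of Muc2. Zg16 was lowest in all 9 LI libraries, at 189 ± 155 per kilobase in centre cells. Reg4 was second in the 9 LI libraries and in the 3 SI libraries numbered 3, and at rank 4 to 8 in the other 6 SI libraries. Exon lengths were taken from GENCODE M21, which may differ from the annotation that was counted on.

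**Figure D2:**
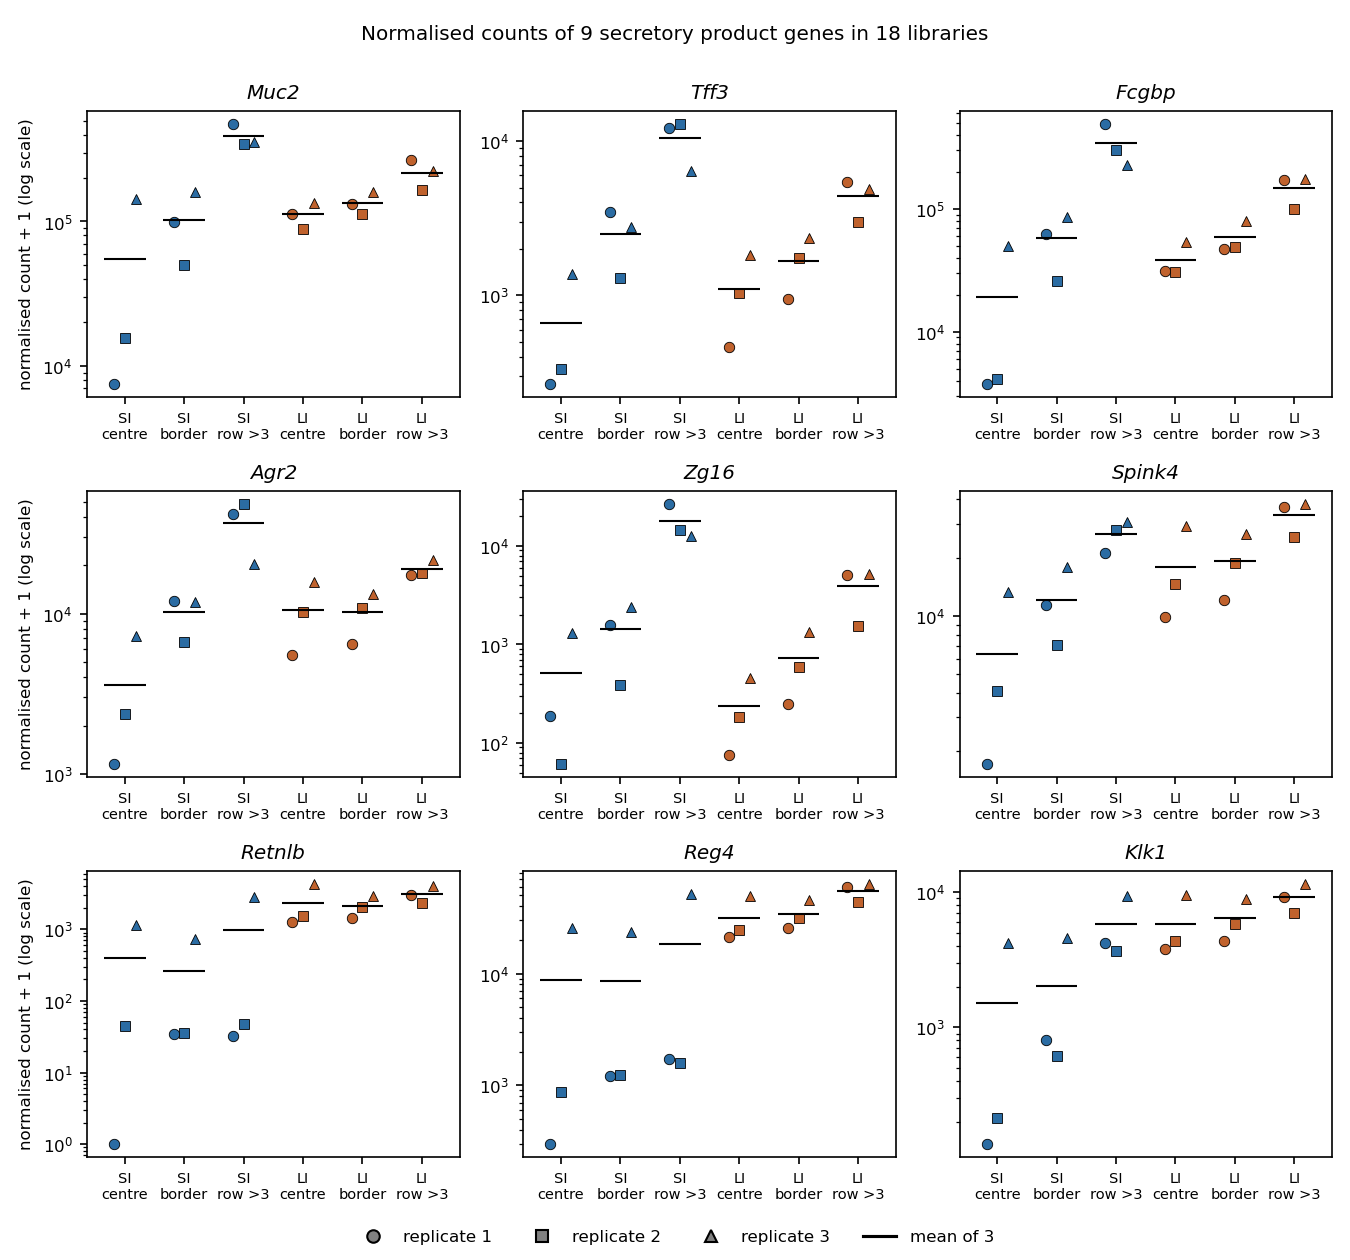
Normalised counts plus 1 on a log axis for each of the 9 genes in the 6 groups, with SI libraries in blue, LI libraries in orange, a marker shape for each replicate number and a line at the mean of 3. In SI centre cells replicate 3 lies above replicates 1 and 2 for each gene, and for Retnlb, Reg4, Klk1 and Spink4 it lies above them in all 3 SI groups.

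The first question was how the 9 genes differed between crypt positions in the SI. Levels are given as the deposited normalised counts (counts divided by a size factor), with replicates 1, 2 and 3 in that order. All 9 log2 fold changes of row >3 against centre cells were positive, from 1.06 to 5.11 with a median of 2.81, and 5 genes rose: Zg16, Fcgbp, Tff3, Agr2 and Muc2 (edgeR quasi-likelihood test, adjusted p under 0.05 over all genes). Of all genes tested, 13.2% passed in this comparison and the median log2 fold change was 0. The count was 7 without the SI libraries numbered 3, against 17.1% of all genes, with Spink4 and Klk1 added. DESeq2 called 6 of the 9, against 15.6% of all genes. When same-numbered libraries of a site were blocked 8 passed, against 22.8% of all genes, and Retnlb was the exception. The count was 4, without Muc2, in the older edgeR fit (11.1% of all genes) and with no filter on low counts (6.8%), and 0 when only the 2 groups compared were fitted (10.7%; 4 of the 9 at an unadjusted p under 0.05).

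Muc2 was counted at 7468, 15661 and 142535 (normalised) in SI centre cells, 99507, 49679.5 and 159922 in border cells and 471405, 346114 and 353346 in row >3 cells. All row >3 libraries lay above all others, while centre replicate 3 lay within the border range. The log2 fold change of row >3 against centre was 2.81 ± 0.85 (SE), 7.03-fold, with an adjusted p of 0.0485. This call is at the threshold: of the 18 fits with a single library omitted it held in 3, with adjusted p from 9.81e-05 to 0.149 across them. It was 5.15 ± 0.50 (adjusted p = 6.41e-05, edgeR) without the SI libraries numbered 3.

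Fcgbp gave 3742, 4138 and 49870 in SI centre cells, 62791, 25979 and 85509.6 in border cells and 490596, 305046 and 230160 in row >3 cells. Its order was that of Muc2, with no overlap between row >3 and the other 2 groups. The log2 fold change of row >3 against centre was 4.14 ± 0.94, 17.6-fold (adjusted p = 0.0114), and 6.66 ± 0.64, 101-fold (adjusted p = 6.67e-05), without the SI libraries numbered 3. It passed in all 18 fits with 1 library left out.

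Zg16, the lectin, had the largest fold change of the 9. Its normalised counts were 187, 59.9 and 1296 in SI centre cells, 1565, 384 and 2397 in border cells and 26549, 14448 and 12534 in row >3 cells. Row >3 libraries did not overlap with the rest, and centre and border did. The log2 fold change was 5.11 ± 1.22, 34.5-fold (adjusted p = 0.0146, edgeR), and 7.36 ± 1.33 (adjusted p = 0.00388) without the SI libraries numbered 3. Leaving out SI centre replicate 1 gave 4.71 with an adjusted p of 0.0684, and the call was lost there.

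Agr2, the mucin-folding isomerase, stood at 1146, 2346 and 7254 in SI centre cells, 12044, 6696 and 11785 in border cells and 41641, 48284 and 20291 in row >3 cells. In row >3 cells replicate 3 was the lowest, although it was the highest in centre cells. The log2 fold change was 3.35 ± 0.65, 10.2-fold (adjusted p = 0.00473), and 4.69 ± 0.63 without the SI libraries numbered 3 (adjusted p = 0.000581, edgeR).

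Tff3, the trefoil peptide, showed the same inversion of replicate 3. Its counts were 264, 333 and 1372 in SI centre cells, 3457, 1288 and 2788 in border cells and 12099, 12878 and 6439 in row >3 cells. It rose by 3.99 ± 0.74 on the log2 scale, 15.9-fold (adjusted p = 0.00351), the smallest adjusted p of the 9, and by 5.39 ± 0.80 (adjusted p = 0.00111) without the SI libraries numbered 3.

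Spink4 had 1713, 4113 and 13229 in SI centre cells, 11412, 7081 and 17935 in border cells and 21207, 27684 and 30701 in row >3 cells. Row >3 libraries lay above all others, as for the 5 genes that rose. Its log2 fold change of 2.06 ± 0.67 had an adjusted p of 0.0631 with all libraries, and was 3.08 ± 0.65 (adjusted p = 0.00885, edgeR) without the SI libraries numbered 3.

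Klk1, the kallikrein, was counted at 135, 214 and 4214 in SI centre cells, 805, 609 and 4622 in border cells and 4231, 3656 and 9452 in row >3 cells. Centre replicate 3 reached the level of row >3 replicates 1 and 2, so these groups overlapped. With all libraries the log2 fold change was 1.92 ± 1.14 (adjusted p = 0.366), and without the SI libraries numbered 3 it was 4.51 ± 0.59, 22.8-fold (adjusted p = 0.000385, edgeR).

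Reg4 and Retnlb did not pass in the SI in the unblocked fits, with or without the libraries numbered 3, and Reg4 passed when same-numbered libraries were blocked. Reg4 had 297, 864 and 25348 in SI centre cells, 1207, 1246 and 23446 in border cells and 1737, 1595 and 51424 in row >3 cells, and its log2 fold change was 1.06 ± 1.64 (adjusted p = 0.8), or 1.54 ± 0.56 (adjusted p = 0.104) without the libraries numbered 3. Each row >3 library of Reg4 was above the centre library of the same number, and the blocked fit gave 1.36 (adjusted p = 0.0278, edgeR). Retnlb had 0, 43.3 and 1168 in centre cells, 33.1, 35 and 722 in border cells and 31.5, 47.4 and 2844 in row >3 cells. A count of 0 in SI centre replicate 1 allows up to 2.43 normalised counts (3 counts in that library, counting error only). The log2 fold change of Retnlb was 1.26 ± 1.74 (adjusted p = 0.798), or 0.93 ± 1.39 (adjusted p = 0.832, edgeR) without the libraries numbered 3. Replicate 3 was 19.1 to 43.7 times the mean of the other 2 SI libraries for Reg4 and 21.2 to 72.1 times for Retnlb. When only row >3 replicate 3 was left out, which leaves the high centre replicate 3 without its partner, both log2 fold changes turned negative, to -2.40 for Reg4 and -3.34 for Retnlb.

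**Figure D3:**
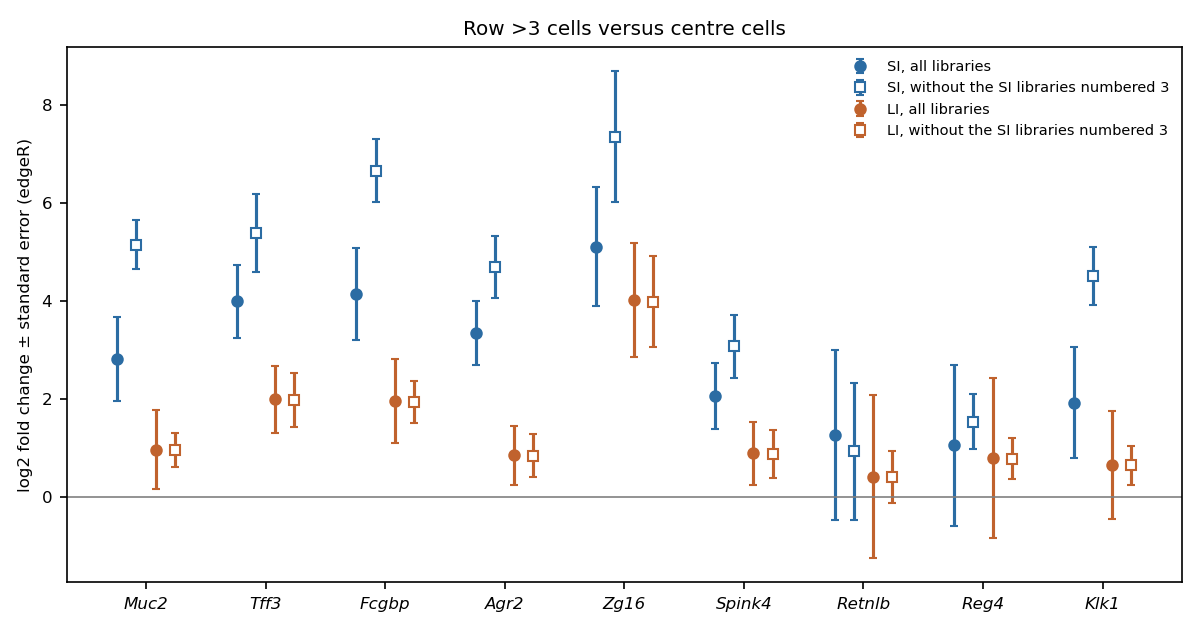
Log2 fold change of row >3 against centre cells with its standard error (edgeR) for each gene, in the SI (blue) and the LI (orange), with all libraries (filled circles) and without the SI libraries numbered 3 (open squares). The open blue squares stand above the filled blue circles for all genes but Retnlb, and the orange values lie lower than the blue ones for each gene.

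Split into its 2 steps, the SI gradient was less resolved. For the step from SI centre to SI border cells 0 of the 9 genes passed in edgeR (2 at an unadjusted p under 0.05), against 0.0112% of all genes, and 0 in DESeq2, against 0.782%. Muc2 and Fcgbp passed without the SI libraries numbered 3, 2 of 9 against 0.963% of all genes, with log2 fold changes of 2.66 ± 0.45 (adjusted p = 0.0251) and 3.46 ± 0.55 (adjusted p = 0.0209). With the block added there, Fcgbp and Klk1 passed, against 2.29% of all genes, and the Muc2 call was lost. Between row >3 and border cells 0 passed in edgeR (5 at an unadjusted p under 0.05), against 1.61% of all genes, although all 9 log2 fold changes were positive, from 1.07 to 3.62. DESeq2 called 4 of them, Tff3, Fcgbp, Agr2 and Zg16, against 4.87% of all genes, and the fit with the replicate block called Zg16, against 9.78%. Muc2, Fcgbp, Agr2, Zg16 and Klk1 passed without the SI libraries numbered 3, 5 of 9 against 7.23% of all genes, with log2 fold changes of 2.49 ± 0.44, 3.20 ± 0.54, 2.30 ± 0.56, 4.49 ± 1.15 and 2.53 ± 0.53.

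The same question in the LI gave smaller differences. All 9 log2 fold changes of row >3 against centre cells were positive, from 0.42 to 4.02 with a median of 0.89, but 0 of the 9 genes passed in edgeR (3 at an unadjusted p under 0.05), where 0.0187% of all genes passed. DESeq2 called 1 gene, Zg16, against 0.307% of all genes, and the fit of the 2 groups alone called Muc2 and Fcgbp, against 1.03%. Without the SI libraries numbered 3, which changes the estimate of the spread and not the LI libraries, again 0 passed (4 at an unadjusted p under 0.05), against 1.9% of all genes. With the replicate block and without those libraries Fcgbp, Zg16 and Klk1 passed, 3 of 9 against 6.78% of all genes, each higher in row >3 cells. In the border against centre and row >3 against border comparisons of the LI, 0 of 9 passed in either tool, with 0 and 1 gene at an unadjusted p under 0.05 in edgeR and with 0% of all genes called by each tool.

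Zg16 in the LI had normalised counts of 74.1, 184 and 453 in centre cells, 245, 594 and 1338 in border cells and 5076, 1536 and 5136 in row >3 cells, a log2 fold change of 4.02 ± 1.17 (16.2-fold, adjusted p = 0.466, edgeR). The 3 row >3 libraries lay above all centre and border libraries. Tff3 had 459.9, 1029 and 1812 in centre cells, 949, 1735 and 2344 in border cells and 5456, 2979.8 and 4877 in row >3 cells, and its log2 fold change was 2.00 ± 0.68 (adjusted p = 0.556). Fcgbp had 31284, 30465 and 53763, then 47189, 49239 and 80426, then 172369, 99189 and 176238, with a log2 fold change of 1.95 ± 0.86 (adjusted p = 0.693). For these 3 genes row >3 stood clear of the other groups, and centre and border overlapped.

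Muc2 in the LI ranged from 88044 to 134853 in centre cells, from 112510 to 159766 in border cells and from 166044 to 266507 in row >3 cells, a log2 fold change of 0.96 ± 0.81 (adjusted p = 0.962). Agr2 went from 5507 to 15742 in centre cells to 17434 to 21582 in row >3 cells (0.85 ± 0.60, adjusted p = 0.915), and Spink4 from 9905 to 29236 in centre cells to 25510.5 to 37787 in row >3 cells (0.89 ± 0.64, adjusted p = 0.92). The Muc2 and Agr2 groups did not overlap between centre and row >3, and those of Spink4 did.

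Reg4, Klk1 and Retnlb were already high in LI centre cells. Reg4 had 21050.2, 24359.6 and 49652 there, 25796, 31198 and 45674 in border cells and 59223, 43253 and 62968 in row >3 cells. Klk1 had 3773, 4326 and 9493 in centre cells, 4349, 5855 and 8987 in border cells and 9251, 7057 and 11473 in row >3 cells. Retnlb had 1251, 1522 and 4275, then 1422, 2057 and 2963, then 3017, 2367 and 4079. In all 3 genes the groups overlapped, with centre replicate 3 inside the row >3 range for Reg4 and Klk1 and above it for Retnlb, and the log2 fold changes of row >3 against centre were 0.79 ± 1.63, 0.65 ± 1.10 and 0.42 ± 1.66 (adjusted p = 0.997, 0.971 and 1, edgeR).

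Whether the gradient from centre to row >3 differed between the sites was tested as the SI change minus the LI change. With all libraries 0 of the 9 genes passed in edgeR (1 at an unadjusted p under 0.05), against 0% of all genes, and 0 in DESeq2, against 0.565%. All 9 differences were positive, from 0.26 for Reg4 to 2.49 ± 0.86 for Agr2 (adjusted p = 0.523). Without the SI libraries numbered 3, 4 of 9 passed against 3.27% of all genes. The gradient was then steeper in the SI by 4.72 ± 0.68 for Fcgbp (adjusted p = 0.00519), 4.2 ± 0.57 for Muc2 (adjusted p = 0.00336), 3.87 ± 0.68 for Klk1 (adjusted p = 0.0127) and 3.85 ± 0.72 for Agr2 (adjusted p = 0.0201, edgeR), all on the log2 scale. Tff3 (3.41 ± 0.90, adjusted p = 0.0902), Zg16 (3.37 ± 1.45, 0.396) and Spink4 (2.2 ± 0.78, 0.247) did not pass, and Reg4 (0.75 ± 0.69) and Retnlb (0.53 ± 1.5) had the smallest differences. For the border against centre step the corresponding count was 0 of 9 with all libraries (0 at an unadjusted p under 0.05 in edgeR, against 0% of all genes, and 0 in DESeq2, against 0.00749%) and 0 of 9 without the SI libraries numbered 3 (5 at an unadjusted p under 0.05), against 0.16% of all genes.

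The next comparison set the SI against the LI at each position, and it turned on the SI libraries numbered 3. With all libraries 0 of the 9 genes passed in edgeR or DESeq2 at any position: 2, 0 and 0 had an unadjusted p under 0.05 in edgeR for centre, border and row >3 cells, and 1.99%, 1.75% and 4.09% of all genes were called by edgeR and 4.6%, 4.54% and 6.3% by DESeq2. In centre cells 8 of the 9 log2 fold changes of SI against LI were negative, with a median of -1.55, and Zg16 was the exception at 1.04 ± 1.08 (adjusted p = 0.768). When only the SI and LI row >3 groups were fitted, Muc2 and Tff3 passed as higher in the SI, against 3.83% of all genes. In row >3 cells 5 were positive with all libraries, with Zg16 at 2.14 ± 1.06, Tff3 at 1.18 ± 0.66, Fcgbp at 1.14 ± 0.84, Agr2 at 0.89 ± 0.60 and Muc2 at 0.78 ± 0.80, none with an adjusted p under 0.371.

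Without the SI libraries numbered 3, Retnlb, Reg4 and Klk1 were lower in the SI. That fit rests on 2 SI libraries per group. The omitted libraries were set apart by a large-intestinal marker, so larger differences between the sites can follow from the choice itself. No comparison of the sites made without them is therefore an independent test of a site difference. In centre cells 7 of 9 genes passed, all lower in the SI, against 10.9% of all genes. The log2 fold changes were -6.87 ± 1.0 for Retnlb (adjusted p = 0.0015), -5.81 ± 0.63 for Reg4 (0.000217), -5.11 ± 0.59 for Klk1 (0.000227), -3.31 ± 0.53 for Fcgbp (0.00276), -3.30 ± 0.44 for Muc2 (0.000825), -2.65 ± 0.61 for Spink4 (0.0212) and -2.62 ± 0.55 for Agr2 (0.0133, all from edgeR). The 2 remaining genes were Tff3 at -1.92 ± 0.68 (adjusted p = 0.126) and Zg16 at -0.98 ± 1.15 (0.776), whose sign turned.

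In border cells 3 of 9 passed, against 8.1% of all genes, namely Retnlb (-6.01 ± 1.02), Reg4 (-4.85 ± 0.61) and Klk1 (-3.24 ± 0.53). In row >3 cells 2 of 9 passed, against 12.2% of all genes: Retnlb at -6.34 ± 0.90 (adjusted p = 0.00114) and Reg4 at -5.06 ± 0.60 (adjusted p = 0.000342). Klk1 was at -1.24 ± 0.46 there (adjusted p = 0.129). In levels, the mean of SI replicates 1 and 2 was 1.83, 3.58 and 3.02% of the LI mean for Reg4 in centre, border and row >3 cells, 0.921, 1.58 and 1.25% for Retnlb and 2.98, 11.1 and 42.6% for Klk1. In SI replicates 1 and 2 Reg4 and Retnlb were thus far below the LI level at each position, and Klk1 came closer to it with distance from the centre. In the SI libraries numbered 3 the same percentages were 80.0, 68.5 and 93.2% for Reg4, 49.7, 33.6 and 90.2% for Retnlb and 71.9, 72.3 and 102% for Klk1. In the same libraries Car1, given above, was higher than in the other SI libraries at each position, though not in the order of Reg4 or Retnlb across positions. The 5 small-intestinal markers summed to 19395, 3673 and 2685 in their centre, border and row >3 cells, below the other SI libraries of the same position (81377 and 85162, 26348 and 56885, 8612 and 10790) and above the LI (356 at most). Their part in the result was not tested.

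**Figure D4:**
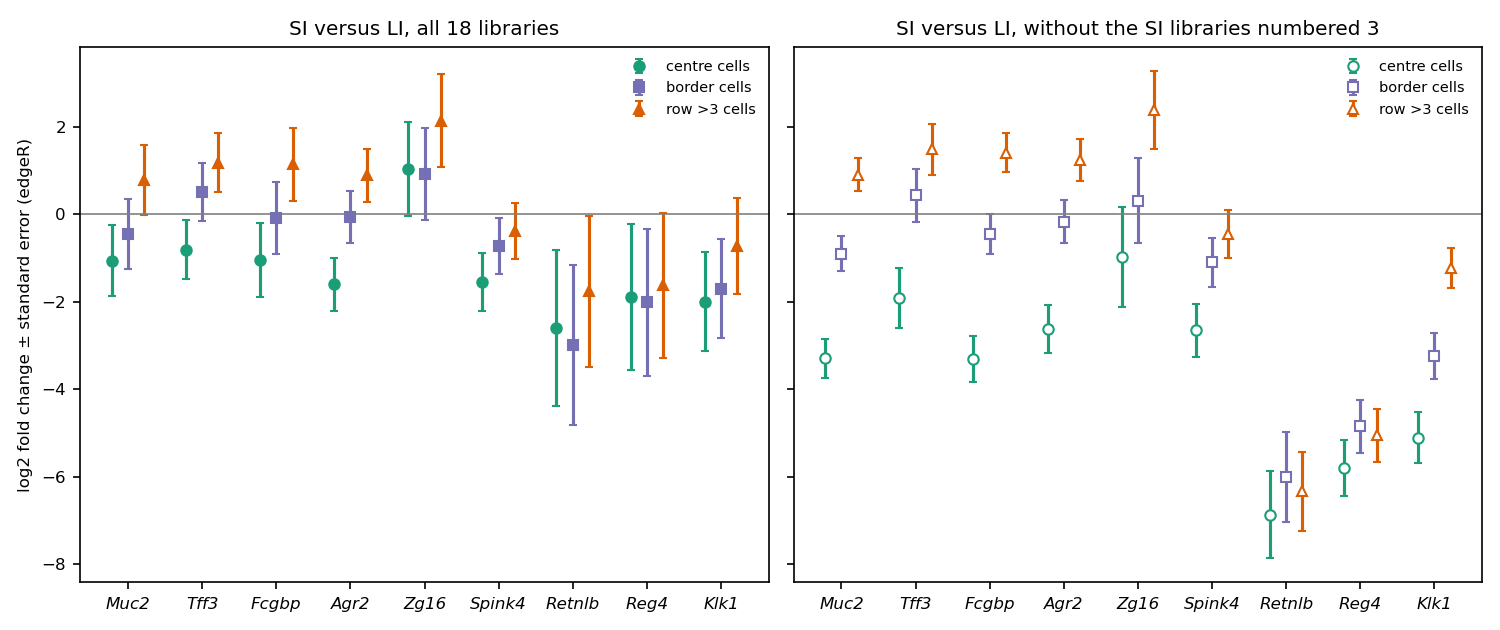
Log2 fold change of SI against LI with its standard error (edgeR) for each gene in centre cells (green circles), border cells (violet squares) and row >3 cells (orange triangles), with all 18 libraries on the left and without the SI libraries numbered 3 on the right. On the right Retnlb (-6.87 to -6.01) and Reg4 (-5.81 to -4.85) lie farthest below 0 at each of the 3 positions, and the values of all 9 genes are higher in row >3 than in centre cells.

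Across the 18 libraries Reg4 and Retnlb varied most alike, followed by Muc2 and Fcgbp (r = 0.968). Spink4 and Klk1 (0.934) were close as well, though less so than several pairs among Muc2, Tff3, Fcgbp, Agr2 and Zg16. For the correlations, CPM was scaled to library totals adjusted by TMM factors. Pearson correlations of log2 CPM were 0.873 to 0.987 among Reg4, Klk1 and Retnlb, 0.673 to 0.968 among the other 6 genes and 0.106 to 0.934 between a gene of the 3 and one of the 6, where the highest value was Spink4 with Klk1 and the lowest Zg16 with Retnlb. Spink4 was thus closer to Klk1 than to Muc2 (0.915). These values describe 18 libraries that share sites, positions and the libraries numbered 3. Among 8690 genes with at least 10 CPM on average, the gene most like Muc2 was Ern2 (r = 0.985), the goblet cell sensor of misfolded protein, followed by Sytl2 and Mia3. Fcgbp was most like Scin (0.985), P2rx4 and Bcas1, Tff3 most like Rassf6 (0.984), Slc12a8 and Fer1l6, and Agr2 most like Sec24d (0.973), P2rx4 and Tmf1. Zg16 was most like Ckmt1 (0.956), Gsn and Tff3. Spink4 was most like Atoh1 (0.986), the transcription factor that sets the secretory fate, then Pdia5 and Hepacam2. Reg4 was most like A4gnt (0.992), B3gnt6 and Etfb, Retnlb most like Reg4 (0.987), Nrp2 and A4gnt, and Klk1 most like Chst4 (0.983), Gcnt3 and 5330417C22Rik. A4gnt, B3gnt6, Gcnt3 and Chst4 encode enzymes that build or sulphate mucin-type glycans.

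The wider secretory programme was followed in 33 related genes in 5 lists. In row >3 against centre cells of the SI, 26 rose and 1 fell, where 13.2% of all genes were called, with a median log2 fold change of 2.09 against 0 over all genes. By list, 6 of 7 goblet cell regulators, 7 of 7 genes of the secretory machinery, 3 of 5 mucin glycosylation genes, 7 of 9 other goblet cell products and 3 of 5 deep crypt secretory genes rose. The 3 with the smallest adjusted p were Capn9, a protease of the gut lining (4.86 ± 0.53, adjusted p = 2.77e-05), Galnt7, which starts O-glycan chains (1.60 ± 0.20, 3.52e-05), and Txndc5, a disulfide isomerase (2.42 ± 0.29, 7.34e-05, edgeR). Clca1, a secreted goblet cell protease, was the 1 gene that fell, by 2.04 ± 0.37 on the log2 scale (adjusted p = 0.001). Its normalised counts were 1036, 991 and 660.3 in SI centre cells and 285, 253 and 101 in row >3 cells, opposite to Muc2. Atoh1 had 81.8, 269.8 and 1209.5 in centre cells and 1939, 2013 and 2677 in row >3 cells and did not pass (2.09 ± 0.72, adjusted p = 0.0803). Whether it passed depended on the fit: over 11 settings in edgeR or DESeq2 it was 2.00 to 3.55, with adjusted p from 8.24e-05 to 0.327.

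**Figure D5:**
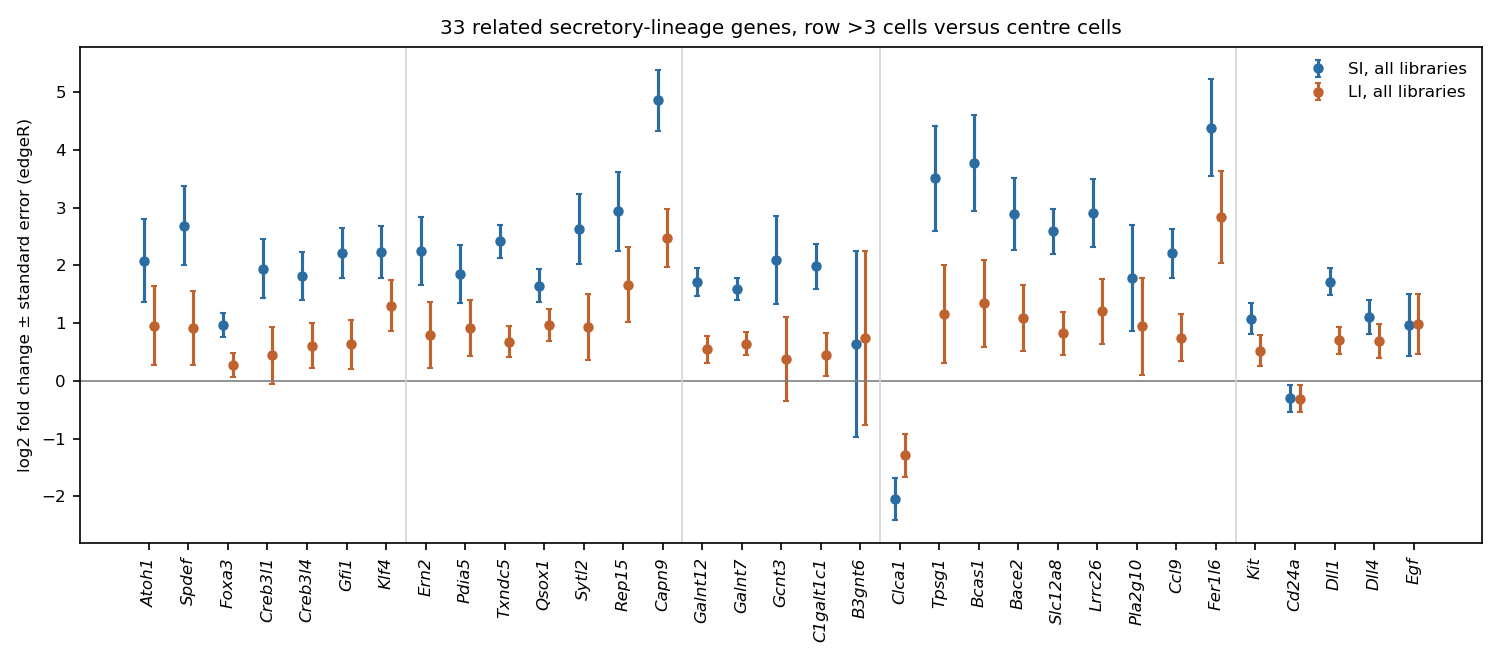
Log2 fold change of row >3 against centre cells with its standard error (edgeR, all libraries) for 33 related genes in the SI (blue) and the LI (orange), with grey lines between the lists of regulators, secretory machinery, mucin glycosylation, other goblet cell products and deep crypt secretory genes. Blue values lie above 0 except for Clca1 and Cd24a, and most orange values lie between 0 and the blue ones.

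Between row >3 and border cells of the SI 4 of the 33 rose, against 1.61% of all genes called, Galnt7 (1.21 ± 0.19, adjusted p = 0.00652), Capn9 (2.51 ± 0.47, 0.0137) and Txndc5 (1.37 ± 0.28, 0.0208) having the smallest adjusted p. All 3 calls were lost when only these 2 groups were fitted (adjusted p = 0.0692, 0.0692 and 0.159), and they held in 16, 16 and 15 of the 18 fits with a single library omitted, where leaving out SI border replicate 2 or SI row >3 replicate 1 ended each. DESeq2 called 15 there, against 4.87% of all genes. In edgeR 0 of the 33 passed in the step from SI centre to SI border cells (13 at an unadjusted p under 0.05, and 4 in DESeq2 against 0.782% of all genes) and between row >3 and centre cells of the LI (13, and 2 in DESeq2 against 0.307%). Neither did any pass in the border against centre step (0 at an unadjusted p under 0.05) and the row >3 against border step (7) of the LI, where DESeq2 called 0. Without the SI libraries numbered 3 the counts were 29 higher and 1 lower (row >3 against centre, SI, with 17.1% of all genes called), 16 higher (border against centre, SI, 0.963%), 25 higher and 1 lower (row >3 against border, SI, 7.23%) and 7 higher and 1 lower (row >3 against centre, LI, 1.9%). The lower gene was Clca1 in each of these.

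Between sites, Galnt7 (-0.77 ± 0.19, adjusted p = 0.0358) and C1galt1c1 (-1.55 ± 0.39, 0.0498), both of mucin glycosylation, were lower in SI centre cells with all libraries, where 1.99% of all genes were called, and 31 of 33 did not pass. DESeq2 called 7, against 4.6% of all genes. With a single library omitted the Galnt7 call held in 13 of 18 fits and the C1galt1c1 call in 7, with adjusted p up to 0.228 and 0.241, and both were lost with no filter on low counts. In row >3 cells 4 of 33 were higher in the SI, against 4.09% of all genes called, among them Dll1, a Notch ligand (0.96 ± 0.23, adjusted p = 0.0171), Txndc5 (1.14 ± 0.28, 0.0262) and Capn9 (1.65 ± 0.43, 0.036). With a single library omitted these held in 14, 13 and 11 of 18 fits, and leaving out any of SI row >3 replicates 1 and 2 or LI row >3 replicates 2 and 3 ended each of the 3. Over the other settings in edgeR or DESeq2 the highest adjusted p was 0.0468 for Dll1, 0.0443 for Txndc5 and 0.138 for Capn9, so among these the Capn9 call alone was lost. In row >3 cells DESeq2 called 5 of 33, against 6.3% of all genes. In border cells 0 of 33 passed in edgeR (3 at an unadjusted p under 0.05), against 1.75% of all genes, and 1 in DESeq2, against 4.54%. In row >3 cells 7 of 33 were higher and 2 lower without the SI libraries numbered 3, against 12.2% of all genes. Without the SI libraries numbered 3, 24 of 33 were lower and 1 higher in SI centre cells, with B3gnt6 at -6.92 ± 0.59 (adjusted p = 2.46e-08), where 10.9% of all genes were called. The site difference of the row >3 against centre gradient called 0 of 33 in edgeR with all libraries (14 at an unadjusted p under 0.05), against 0% of all genes, and 1 in DESeq2, against 0.565%. It called 21 of 33, all steeper in the SI, without the SI libraries numbered 3, against 3.27% of all genes. For the border against centre step the site difference called 0 of 33 with all libraries in edgeR (4 at an unadjusted p under 0.05), against 0% of all genes. DESeq2 called 0 there, against 0.00749%. B3gnt6 was counted at 3.24, 5.53 and 545 in SI centre cells and at 468, 388 and 727 in LI centre cells, the pattern of Reg4.

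Reads of near-identical relatives can be split between genes in counting, so the families were checked, and most relatives were at low counts. Of the kallikrein 1 cluster Klk1b4 reached 108 normalised counts, Klk1b5 28.4, Klk1b16 27.1 and the others at most 5.66, against 11473 for Klk1. Retn, Retnla and Retnlg were at 0 throughout, as was Tff1, and Tff2 reached 36.4, Agr3 49.4 and the gel-forming mucin Muc5ac 212. The Reg family was the exception, with Reg3b up to 28708 and Reg3g up to 17342 in the SI. Reg3g, an antibacterial lectin, was higher in the SI at each position (5.97 ± 1.01, adjusted p = 0.0103, in centre cells; 5.46 ± 0.96, 0.0139, in border cells; 7.95 ± 1.06, 0.00105, in row >3 cells; edgeR, all libraries). In that fit Reg4 did not pass at any position. Reg3g was higher without the SI libraries numbered 3 as well, by 6.50 ± 0.62, 5.68 ± 0.57 and 8.45 ± 0.61, where Reg4 was lower in the SI.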

How the data were processed

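Crypt cells of Lgr5 reporter mice were dissociated with TrypLE, sorted by EPCAM and GFP after exclusion of dead cells, and at least 270 pg RNA per sample went into a stranded SMART-Seq library. The authors sequenced paired reads of 100 nt on a NovaSeq, trimmed them with Skewer, aligned them to mm10 with STAR and deposited whole-number counts per gene. They also deposited a signal table of normalised counts, in which each count was divided by a DESeq2 size factor. Whether counting used the strand, and which segment of the SI was taken, is not given in the sources used here. The labels name replicates 1 to 3 per group, which the study calls biological. All 18 count columns and 18 normalised columns could be assigned to a sample.

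Normalised counts served for levels and raw counts for tests. Genes with a mean count above 0 (26717) entered one edgeR (version 4.0.16, R 4.3.3) quasi-likelihood fit of the 6 groups with TMM factors, robust dispersions and 12 residual degrees of freedom, and p-values were adjusted by Benjamini-Hochberg over all genes, with 0.05 as threshold. The SI change minus the LI change was a contrast in the same fit. DESeq2 (1.42.0), other scalings and filters, a replicate block within each site, fits of the compared groups alone and fits without each library were alternatives, and the scripts were tested on simulated data. The fit without the SI libraries numbered 3 was planned from the regional markers seen in an earlier analysis of these data and not from the 9 genes. The older quasi-likelihood fit of edgeR and the block without those libraries were added after seeing the data. The members and gene lists were chosen with earlier results of these data known. Genes were named as members, as up to 3 related genes with the smallest adjusted p per comparison and direction, as the 3 genes most alike, or for their family.

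Same-numbered libraries deviated together within the SI (r 0.321 to 0.742 over 9 pairs) and within the LI (0.371 to 0.646), and less so across sites (-0.106 to 0.376 over 27 pairs). The replicate block within each site, an alternative fit, therefore treated numbers as pairs. The main fit had no block, so its p-values do not use this pairing. Gene positions and exon lengths came from GENCODE M21 (42462 of 43346 identifiers matched). The total count per library limits the precision of low genes, and intervals on counts cover counting error only. PCR duplicates were not removed by molecular identifiers. One gene used among the regional markers is not reported here.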

Additional observations from a re-analysis of the deposited data

Results flagged for a closer look

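A gradient from centre to row >3 cells that differed between the sites was found for 4 of the 9 genes and 21 of the 33 related genes, against 3.27% of all genes, by the contrast of SI change minus LI change without the SI libraries numbered 3 (edgeR). The difference was 4.72 ± 0.68 on the log2 scale for Fcgbp (adjusted p = 0.00519), 4.2 ± 0.57 for Muc2 (0.00336), 3.87 ± 0.68 for Klk1 (0.0127) and 3.85 ± 0.72 for Agr2 (0.0201). Among the related genes named above it was 3.60 ± 0.75 for Capn9 (0.00764), 2.37 ± 0.25 for Txndc5 (9.05e-06) and 1.29 ± 0.23 for Galnt7 (0.00165). All 7 differences given are positive, so the rise from centre to row >3 was steeper in the SI. With all libraries none of the 7 passed in edgeR. The fit without the SI libraries numbered 3 rests on 2 SI libraries per group.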

How the results depend on the processing

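The count of the 9 genes called in row >3 against centre cells of the SI, 5 with all libraries, was 4 to 7 with other scalings, filters and tools and without the SI libraries numbered 3. It was 0 when only the 2 groups compared were fitted (10.7% of all genes) and 8 with the replicate block (22.8%). It was also 8 with the block and without the SI libraries numbered 3. The share of all genes called in that last fit is not given here, so its count cannot be set against it. In row >3 against border cells of the SI it went from 0 to 4 in DESeq2 (4.87% of all genes) and to 1 with the replicate block (9.78%). It was 5 without the SI libraries numbered 3 (7.23%). With both it was 5, and the share of all genes called there is likewise not given. In border against centre cells of the SI it was 2 without those libraries (Muc2 and Fcgbp) and 2 with the block as well (Fcgbp and Klk1). In row >3 against centre cells of the LI it was 1 in DESeq2, 2 in the fit of the 2 groups (Muc2 and Fcgbp) and 3 with the block and without the SI libraries numbered 3 (Fcgbp, Zg16 and Klk1). Without the SI libraries numbered 3, the count for SI against LI was 7 (centre), 3 (border) and 2 (row >3), all lower in the SI. With all libraries and only the 2 groups fitted it was 2 in row >3 cells (Muc2 and Tff3), both higher in the SI. For the site difference of row >3 against centre it was 4 without those libraries, against 3.27% of all genes. The same 4 genes passed with the block added, where the share of all genes called is not given, so that count stands without a comparison. The block and the omission of the SI libraries numbered 3 were not combined for SI against LI, since the SI then lacks that number. The causes were not tested.

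Leaving out each library in turn gave counts of 3 to 7 in row >3 against centre cells of the SI (3 without SI centre replicate 1, 7 without SI centre replicate 3), 0 to 2 in border against centre and in row >3 against border cells of the SI, 0 to 5 for SI against LI in centre cells and 0 to 3 for the site difference of row >3 against centre, where each count above 0 came from leaving out SI centre replicate 3. The share of all genes called in each of these fits is not given here. The counts therefore cannot tell a gain of calls among the members from a gain among all genes. Signs turned for Zg16 in SI against LI centre cells (-0.98 without the SI libraries numbered 3, and -1.01 to 1.92 with 1 library omitted). They also turned for Retnlb (-3.34 to 5.52) and Reg4 (-2.40 to 4.99) in row >3 against centre cells of the SI, and for the site difference of that gradient in Retnlb (-3.77 to 5.11) and Reg4 (-3.20 to 4.19).

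Of 1314 log2 fold changes of named genes with 1 library left out, 1231 kept direction and side of the threshold, 56 lost a call, 19 gained one and 8 turned. Of 703 under the other 10 alternatives, 614 kept both, 17 lost a call, 71 gained one and 1 turned. Scaling by library size alone shifted the median log2 fold change of 11518 well-counted genes by -0.19 in row >3 against centre and -0.15 in row >3 against border cells of the SI, and by -0.12 in row >3 against centre cells of the LI, relative to the TMM scaling. Retnlb had 0 to 60 raw counts in SI replicates 1 and 2. Only SI centre replicate 1, with 0, lay below the limit of 3 counts used above.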
